A study of Homo sapiens with 6 samples.

Results

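The genes described here are 45 genes of DNA replication and of the passage from G1 to S phase, out of 37887 rows in the count table. They were chosen by symbol, as known genes of replication origins, the replication fork, nucleotide supply and the E2F factors, and not by their values. All 45 were found and all passed the low-count filter that left 15355 genes for testing.

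The cells were MDA-MB-436, an established triple-negative breast cancer line with a mutated BRCA1 gene. In every library the cells held an integrated vector, selected with puromycin, from which tetracyclines induce an shRNA against MUC1, a membrane mucin. Control cells received 0.1% DMSO as vehicle and shMUC1 cells received 500 ng/ml doxycycline, which switches the shRNA on, with 3 libraries in each group. The labels describe triplicate cultures, so p-values measure the spread between these 3 libraries a group, which may be partly technical. Titles of the control samples mention a control shRNA, but their treatment labels and the design give vehicle-treated cells of the MUC1 shRNA line, which is how they are read here. No library with a control shRNA and doxycycline was analysed here, so the drug and the silencing of MUC1 cannot be told apart. The time in doxycycline for this line, and whether the cells were a clone or a pool, are not given in the sources used here.

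Replication begins in G1, when the origin recognition complex (ORC), CDC6 and CDT1 load the ring-shaped MCM2-7 helicase onto origins, a step called licensing. Late in G1, before S phase, E2F factors are freed from the pocket proteins (RB1, RBL1, RBL2), and E2F raises the transcription of most genes of the list. Cyclin E with CDK2 and the CDC7-DBF4 kinase turn the loaded MCM2-7 rings into active helicases with CDC45 and the GINS complex. Primase and polymerase alpha then lay down primers, polymerases epsilon and delta extend them on the PCNA clamp, and ribonucleotide reductase supplies the deoxynucleotides.

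Library totals ran from 18678307 to 27825546 counts. Levels are given as counts per 1000000 counts (CPM) on library sizes scaled by the TMM method, with means ± SD over 3 libraries. Each log2 fold change is shMUC1 minus control with its standard error (SE), and a gene was called at a Benjamini-Hochberg adjusted p under 0.05 over all genes tested in the edgeR quasi-likelihood test. MUC1 had 93, 84 and 102 counts in the control libraries and 72, 51 and 34 in the shMUC1 libraries, or 3.88 ± 0.401 against 2.14 ± 0.412 CPM, and fell by 0.84 on the log2 scale (edgeR adjusted p = 0.00119). Its exons overlap those of AL713999.1 on the same strand.

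Of 5 genes that mark a mesenchymal-type triple-negative line, VIM (718 ± 26.0 CPM in control), CAV1, AXL and ZEB1 were well counted, while SPARC stood at 1.55 CPM. Summed over the 5, the level ran from 2636 to 2737 CPM in control and from 2371 to 2506 CPM in shMUC1 libraries, with 1 gene called higher and 4 called lower. The receptors ESR1 and PGR had at most 12 counts in a library, and ERBB2 stood at 44.7 CPM in control. Among 6 markers of other cell types, CD3E and GRHL2 had 0 counts in all libraries and none passed 40 counts. Those 6 summed to between 1.59 and 1.97 CPM in control and between 1.02 and 1.23 CPM in shMUC1 libraries, with 1 called higher and 1 called lower. The share of counts from mitochondrially encoded protein genes was 3.74% ± 0.413 in control and 5.10% ± 0.139 in shMUC1 libraries, and its part in the results was not tested.

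Many of these genes have E2F sites in their promoters, so the site is shown here in the promoters of 8 members, 4 called higher and 4 called lower, whose values follow. Each line is 30 bases read 5′ to 3′ on the gene's strand, taken from the RefSeq promoter table (GRCh38.p14), and capitals mark the E2F-type letters.
GINS1: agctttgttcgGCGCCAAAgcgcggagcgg
E2F2: gcggcacgacgTTTGGCGCtaaaaaaaaaa
CDT1: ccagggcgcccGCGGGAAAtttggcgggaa
CDC6: ggccattcggaTTTGGCGCgagcgcggctg
POLA1: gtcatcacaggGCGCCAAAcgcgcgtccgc
POLA2: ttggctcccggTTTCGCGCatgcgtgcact
POLE: tgggtgggagcGCGCCAAAtttctcccctg
POLE2: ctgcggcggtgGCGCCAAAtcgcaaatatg

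The windows lie at chr20:25407667-25407696 on the plus strand (GINS1), chr1:23531257-23531286 on the minus strand (E2F2), chr16:88803743-88803772 on the plus strand (CDT1) and chr17:40287875-40287904 on the plus strand (CDC6). Those of the genes called lower lie at chrX:24693770-24693799 on the plus strand (POLA1), chr11:65261898-65261927 on the plus strand (POLA2), chr12:132687342-132687371 on the minus strand (POLE) and chr14:49688201-49688230 on the minus strand (POLE2). Counted from the annotated transcription start, the letters begin at base -137 in POLA1, -53 in POLA2, -42 in E2F2, -35 in CDT1, -18 in POLE and -5 in POLE2, and after the start at base 6 in GINS1 and 8 in CDC6. The letters searched were TTTCCCGC, TTTGGCGC, TTTCGCGC and TTTGCCGC on both strands, from 250 bases before to 50 after each start.

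Promoters were in the RefSeq table for 39 of the 45 members, and 19 of them, or 48.7%, held at least 1 of these sites. Over all 27305 promoters of the table the share was 3.33%, and over the 11187 promoters of tested genes it was 5.27%. The 19 members with a site had log2 fold changes from -0.56 to 0.53 with a median of 0.09, and 8 were called higher and 5 lower. The 20 members without one had a median of 0.09, with 7 called higher and 4 lower. Beside these counts, 25.2% of all tested genes were called higher and 23.6% lower. The letters stood near the start of members at both ends of the range, and no match says only that these letters are not in this window.

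Of the 45 members, 17 were called higher in shMUC1 libraries, 10 were called lower and 18 passed the test in neither direction. Over all tested genes 25.2% were called higher and 23.6% lower, against 37.8% and 22.2% of the members. Well-counted genes are called more often, and among the 11018 tested genes with a mean count at least that of the lowest member the shares were 31.9% higher and 26.8% lower. In either direction, 27 of the 45 members were called, beside 48.7% of all tested genes and 58.7% of the equally well-counted ones. The members' shares lay near these backgrounds, which also stand beside the counts by role that follow. In bulk RNA, a change in the share of cells in S phase and a change in RNA per cell cannot be told apart.

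The changes were small. No member passed a 2-fold change, which 5.95% of all tested genes did and 2.89% of the equally well-counted ones. The median log2 fold change was 0.08 over the members, 0.00058 over all tested genes and 0.024 over the equally well-counted ones. The median size without sign was 0.173 for the members, 0.245 for all tested genes and 0.205 for the equally well-counted ones. Per library, the members' median distance from the control mean was -0.0065, 0.0086 and 0.0036 in control and 0.0653, 0.0660 and 0.0911 in shMUC1 libraries, on the log2 scale. Together the members took 0.457% ± 0.00421 of the counts in control and 0.458% ± 0.00221 in shMUC1 libraries. RRM2 and MCM4 weigh most in this sum, with 27695 and 14991 of 100352 member counts in control replicate 1.

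**Figure D1:**
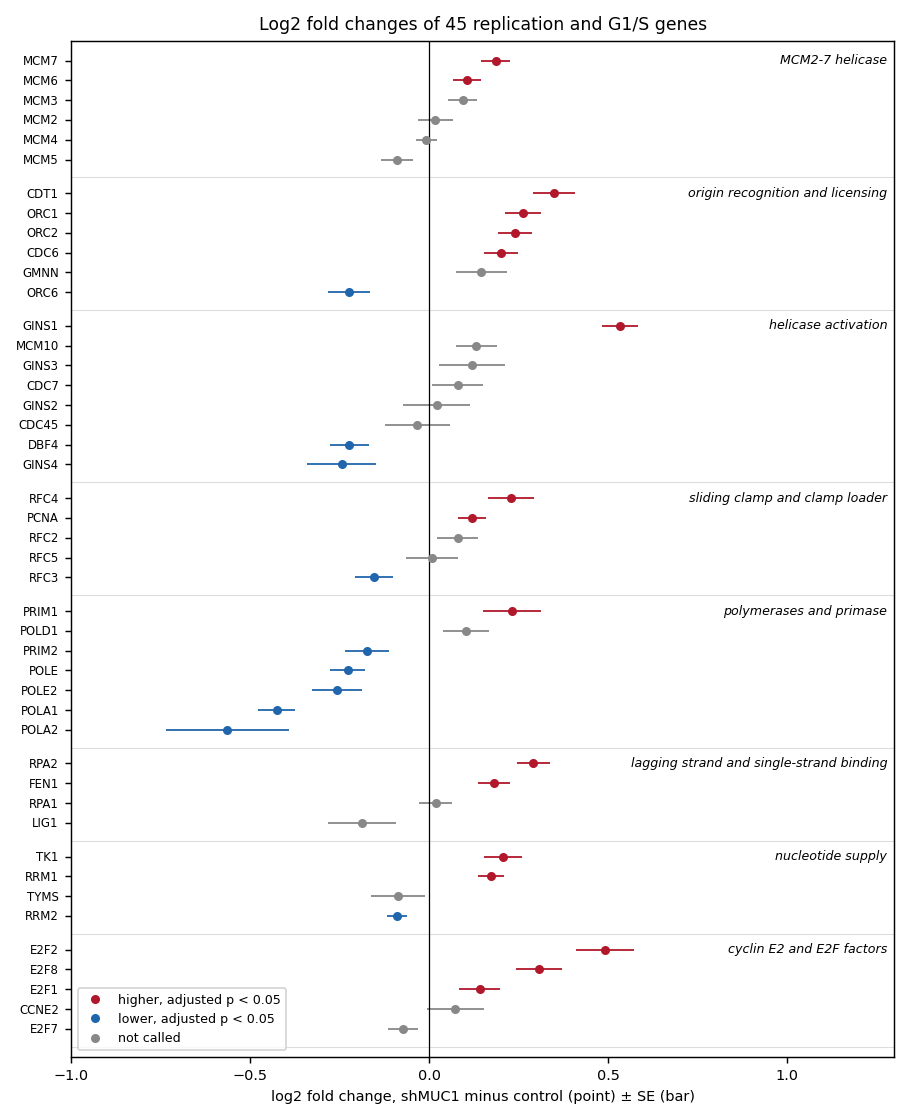
Log2 fold change (x axis, shMUC1 minus control) of the 45 members (y axis, by role), with bars for ± SE and colours for calls at an adjusted p under 0.05. The points run from -0.56 (POLA2) to 0.53 (GINS1), with 5 of 7 polymerase and primase genes called lower and 4 of 6 licensing genes called higher. Among the equally well-counted genes 26.8% were called lower and 31.9% higher.

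The largest group of members called lower were the polymerases and primase, with 5 of 7 called lower, 1 higher and a median log2 fold change of -0.23. POLA1, the catalytic subunit of polymerase alpha (chrX:24693919-24996986, plus strand, GRCh38), stood at 79.0, 77.5 and 87.9 CPM in control and 59.1, 59.2 and 64.0 CPM in shMUC1 libraries. The groups did not overlap, and POLA1 fell by 0.43 (SE 0.0526, edgeR adjusted p = 1.26e-08), or by 25.6%. POLA2, its accessory subunit, was the member with the lowest level and the largest fall, from 4.52, 5.38 and 5.77 CPM to 3.58, 3.30 and 3.76 CPM. It had 99, 131 and 149 counts in control and 99, 85 and 70 in shMUC1 libraries, and its log2 fold change was -0.56 (SE 0.171, edgeR adjusted p = 0.0061). Its exons overlap those of AP000944.2 on the same strand, so its reads may be split.

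The primase subunits, which make the RNA primers, went in opposite directions. PRIM1, the catalytic subunit, stood at 20.6, 19.99 and 19.0 CPM in control and rose to 24.3, 22.9 and 22.7 CPM, a log2 fold change of 0.23 (SE 0.0815, edgeR adjusted p = 0.0179). PRIM2, the regulatory subunit, went from 46.1 ± 2.47 to 40.9 ± 0.991 CPM (log2 fold change -0.17, edgeR adjusted p = 0.0166). Neither pair of groups overlapped, but both calls depended on single libraries. The PRIM1 call was lost without control replicate 3 (edgeR adjusted p = 0.0913) or shMUC1 replicate 1 (0.0850). The PRIM2 call was lost without control replicate 1 (edgeR adjusted p = 0.0976), control replicate 2 (0.0522) or shMUC1 replicate 2 (0.0696). PRIM1 shares exon sequence on its strand with NACA and AC117378.1.

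POLE, the catalytic subunit of the leading-strand polymerase epsilon, stood at 88.1, 91.9 and 94.2 CPM in control and 79.9, 72.5 and 82.2 CPM in shMUC1 libraries. All control values lay above all shMUC1 values, and the log2 fold change was -0.23 (SE 0.0484, edgeR adjusted p = 0.00015). After removal, in each library, of the trend with exon length and GC content it was -0.07 (edgeR adjusted p = 0.188), and the call was lost. POLE2, a second subunit of the same enzyme, fell from 35.6, 33.5 and 34.8 CPM to 28.95, 30.4 and 27.2 CPM, again without overlap (log2 fold change -0.26, SE 0.0695, edgeR adjusted p = 0.00211). POLD1, the catalytic subunit of polymerase delta, was not called, at 34.6, 33.6 and 34.3 CPM in control and 35.8, 35.7 and 38.8 CPM in shMUC1 libraries (log2 fold change 0.10, edgeR adjusted p = 0.203).

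**Figure D2:**
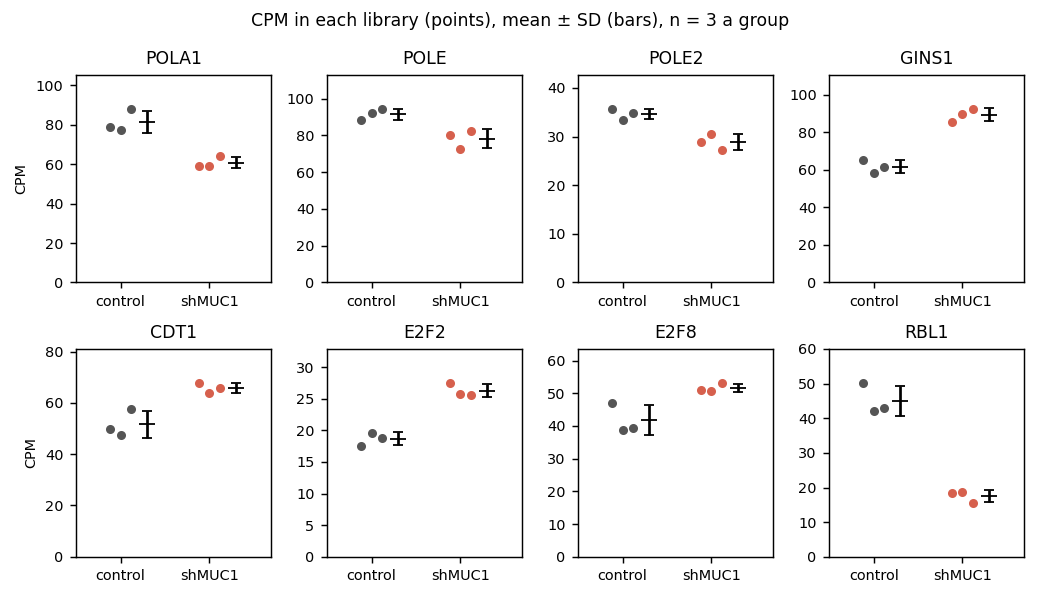
CPM (y axis, linear from 0) in each of 3 control and 3 shMUC1 libraries (points) with mean ± SD (bars) for POLA1, POLE, POLE2, GINS1, CDT1, E2F2, E2F8 and RBL1, the last a pocket protein outside the 45. In all 8 panels the control and shMUC1 libraries do not overlap.

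The origin and licensing genes held the largest share of calls in the other direction, with 4 of 6 called higher, 1 lower and a median of 0.22. These are few genes, beside shares of 31.9% higher and 26.8% lower among the equally well-counted genes. CDT1, which brings MCM2-7 to the origin (chr16:88803213-88809258, plus strand, GRCh38), stood at 49.9, 47.5 and 57.5 CPM in control and 67.5, 63.9 and 65.8 CPM in shMUC1 libraries. The groups did not overlap, and the rise of 27.3% corresponded to a log2 fold change of 0.35 (SE 0.0587, edgeR adjusted p = 5.14e-06). CDC6, the loader ATPase that acts with CDT1, rose from 72.0, 76.0 and 75.0 CPM to 86.1, 89.7 and 80.0 CPM (log2 fold change 0.20, SE 0.0483, edgeR adjusted p = 0.000691). GMNN encodes geminin, the protein that binds and blocks CDT1, and its libraries overlapped at 34.8, 31.0 and 34.5 CPM against 34.6, 35.6 and 41.1 CPM (log2 fold change 0.15, edgeR adjusted p = 0.0919). It was called in the fit without shMUC1 replicate 1 (log2 fold change 0.20, edgeR adjusted p = 0.0470).

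Subunits of ORC, which marks origins, did not move together. ORC1 stood at 62.8, 62.6 and 59.1 CPM in control and 76.3, 74.0 and 70.6 CPM in shMUC1 libraries (log2 fold change 0.26, SE 0.0503, edgeR adjusted p = 3.58e-05). ORC2 rose from 66.4, 68.4 and 69.6 CPM to 78.9, 82.6 and 79.9 CPM (log2 fold change 0.24, SE 0.0473, edgeR adjusted p = 5.92e-05). ORC6, the smallest subunit, fell from 44.6, 47.4 and 46.8 CPM to 39.0, 39.5 and 40.5 CPM (log2 fold change -0.22, SE 0.0596, edgeR adjusted p = 0.0019). The groups of none of these 3 genes overlapped. Outside the 45, ORC3, ORC4 and ORC5 were not called (log2 fold changes 0.07, -0.04 and 0.09).

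Of the MCM2-7 helicase subunits, which form 1 ring in equal copies, 2 of 6 were called higher and none lower. MCM7 stood at 160.1, 151 and 170 CPM in control and 183, 177 and 188 CPM in shMUC1 libraries, with no overlap (log2 fold change 0.19, SE 0.0403, edgeR adjusted p = 0.000201). MCM6 went from 134 ± 5.52 to 144 ± 2.81 CPM (log2 fold change 0.11, edgeR adjusted p = 0.0259). The MCM6 call was lost without control replicate 1 (edgeR adjusted p = 0.0783), control replicate 2 (0.130) or shMUC1 replicate 3 (0.0882), and also for MCM6 with library totals only (0.0828) and with a minimum mean of 50 counts (0.0712). MCM2, MCM3, MCM4 and MCM5 were not called, with log2 fold changes of 0.02, 0.09, -0.01 and -0.09. MCM3 and MCM5 showed no overlap between groups all the same, MCM3 with shMUC1 above control and MCM5 with shMUC1 below.

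Among the 8 helicase activation genes, 1 was called higher, 2 lower and 5 neither. GINS1, a subunit of the 4-part GINS complex (chr20:25407727-25452628, plus strand, GRCh38), had the largest rise of all 45 members. It stood at 65.0, 58.4 and 61.5 CPM in control and 85.6, 89.9 and 92.2 CPM in shMUC1 libraries, far apart for its spread. The rise was 44.7%, a log2 fold change of 0.53 (SE 0.0496, edgeR adjusted p = 1.81e-11). The other GINS subunits, partners in the same complex, did not follow. GINS2 and GINS3 were not called (log2 fold changes 0.02 and 0.12). GINS4 went from 18.0, 20.6 and 19.1 CPM to 17.4, 17.4 and 13.5 CPM, without overlap (log2 fold change -0.25, SE 0.0974, edgeR adjusted p = 0.0356). The GINS4 call was lost without control replicate 2 (edgeR adjusted p = 0.146) or shMUC1 replicate 3 (log2 fold change -0.14, edgeR adjusted p = 0.262), and with DESeq2 (adjusted p = 0.0920).

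The CDC7 kinase needs its regulatory subunit DBF4 to fire origins. DBF4 stood at 75.8, 74.9 and 66.1 CPM in control and fell to 64.6, 59.8 and 60.8 CPM in shMUC1 libraries (log2 fold change -0.22, SE 0.0540, edgeR adjusted p = 0.000716). CDC7 overlapped between groups, at 28.6, 31.0 and 32.2 CPM against 33.9, 30.8 and 32.4 CPM (log2 fold change 0.08, edgeR adjusted p = 0.378). MCM10, a factor that helps the helicase start, was not called but did not overlap, at 47.3, 46.2 and 47.6 CPM against 50.7, 53.7 and 50.1 CPM (log2 fold change 0.13, edgeR adjusted p = 0.0504). CDC45, the GINS partner in the active helicase, had a log2 fold change of -0.03.

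Of the clamp and its loader, PCNA and RFC4 were called higher and RFC3 lower, with RFC2 and RFC5 called in neither direction. PCNA, the sliding clamp, went from 132 ± 4.80 to 143 ± 2.52 CPM (log2 fold change 0.12, edgeR adjusted p = 0.0112). Its call was lost without control replicate 1 (edgeR adjusted p = 0.0911) and after removal of the length and GC trend (0.116). RFC4, a loader subunit, stood at 40.3, 35.4 and 36.5 CPM in control and 42.6, 45.5 and 43.1 CPM in shMUC1 libraries, without overlap (log2 fold change 0.23, SE 0.0639, edgeR adjusted p = 0.00312). RFC3, another subunit of the loader, was called lower (72.6 ± 4.14 to 65.4 ± 3.82 CPM, edgeR adjusted p = 0.0150) although its groups overlapped. The RFC3 call was lost without control replicate 2 (edgeR adjusted p = 0.124) or shMUC1 replicate 2 (0.140).

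On the lagging strand, FEN1, the nuclease that trims flaps between fragments, stood at 86.8, 96.0 and 90.7 CPM in control and 105, 105 and 99.4 CPM in shMUC1 libraries (log2 fold change 0.18, SE 0.0448, edgeR adjusted p = 0.000956). RPA2, a subunit of the protein that coats single-stranded DNA, rose from 97.2, 91.9 and 85.7 CPM to 115, 107 and 114 CPM (log2 fold change 0.29, SE 0.0460, edgeR adjusted p = 1.67e-06). Both genes had all shMUC1 libraries above all control libraries. LIG1, the ligase that joins the fragments, was not called, at 17.5, 17.3 and 20.8 CPM against 17.3, 16.4 and 14.9 CPM (log2 fold change -0.19, edgeR adjusted p = 0.100). RPA1, the large subunit of the RPA2 complex, had a log2 fold change of 0.02. FEN1 shares exon sequence with FADS2 on its strand, and both FEN1 and RPA2 have named pseudogenes.

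For nucleotide supply, the subunits of ribonucleotide reductase moved apart by small amounts. RRM1, the large subunit, stood at 187, 183 and 170.0 CPM in control and 204, 203 and 202 CPM in shMUC1 libraries (log2 fold change 0.17, SE 0.0375, edgeR adjusted p = 0.000201). RRM2, the small subunit that accumulates in S phase, stood at 1263, 1204 and 1189 CPM in control and 1158, 1129 and 1145 CPM in shMUC1 libraries (log2 fold change -0.09, SE 0.0277, edgeR adjusted p = 0.00643). Neither gene overlapped between groups, and the RRM2 call was lost without control replicate 1 (edgeR adjusted p = 0.118). TK1, the S-phase thymidine kinase, rose from 58.3, 56.6 and 63.5 CPM to 66.7, 70.0 and 69.3 CPM (log2 fold change 0.21, SE 0.0525, edgeR adjusted p = 0.00127). TYMS, which makes thymidylate, was not called (log2 fold change -0.09).

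Among cyclin E2 and the E2F factors, 3 of 5 were called higher and none lower. E2F2, an activating E2F (chr1:23506430-23531220, minus strand, GRCh38), stood at 17.6, 19.6 and 18.9 CPM in control and 27.4, 25.7 and 25.6 CPM in shMUC1 libraries. The groups lay well apart, and the rise of 40.5% was a log2 fold change of 0.49 (SE 0.0809, edgeR adjusted p = 3.44e-06). E2F8, a repressive E2F, rose from 47.1, 38.8 and 39.4 CPM to 51.1, 50.7 and 53.0 CPM, also without overlap (log2 fold change 0.31, SE 0.0642, edgeR adjusted p = 0.000131).

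E2F1, the best known activating E2F, went from 50.4 ± 2.67 to 55.5 ± 1.64 CPM, a log2 fold change of 0.14 (edgeR adjusted p = 0.0363). Its call was lost in 7 of 15 alternatives, the most among the 27 called members. It was lost without control replicate 1 (edgeR adjusted p = 0.0790), control replicate 2 (0.176), shMUC1 replicate 1 (0.147) or shMUC1 replicate 2 (0.0579). The E2F1 call was also lost with DESeq2 (adjusted p = 0.0760) and, in edgeR, with library totals only (0.0828) and a minimum mean of 50 counts (0.0677). E2F7, the other repressive E2F of the list, was not called (log2 fold change -0.07, edgeR adjusted p = 0.147), nor was CCNE2, which encodes cyclin E2 (0.07, edgeR adjusted p = 0.484).

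**Figure D3:**
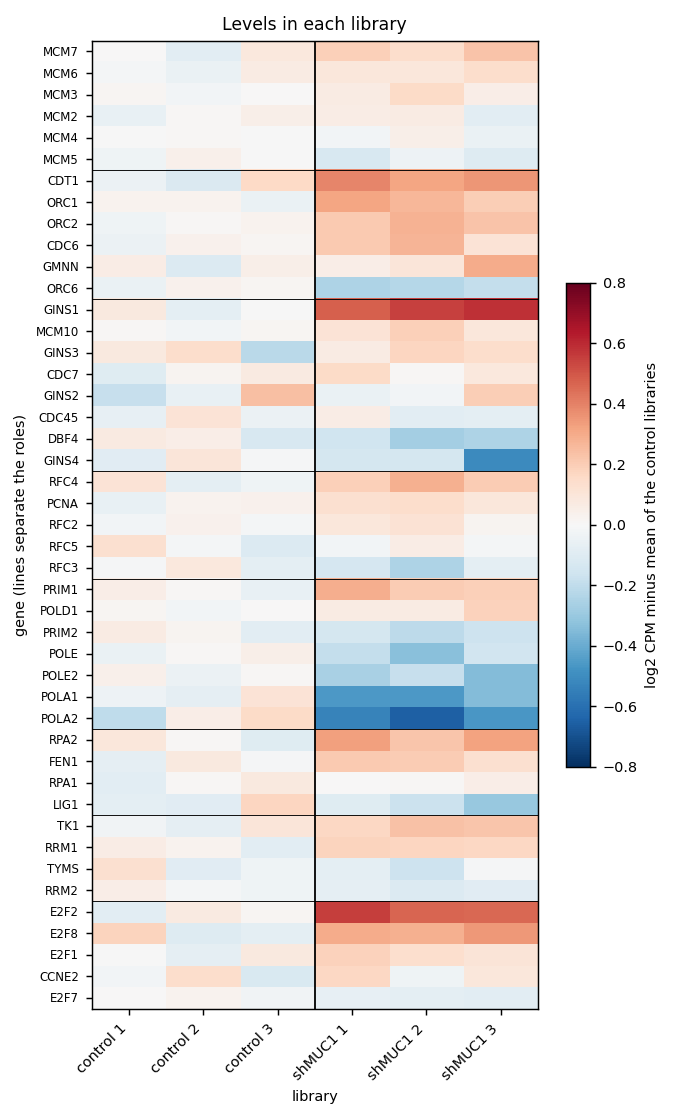
Log2 CPM minus the mean of the 3 control libraries (colour) for each of the 45 members (y axis, by role) in each library (x axis). GINS1, CDT1 and E2F2 are above the control mean in all 3 shMUC1 libraries and POLA1 and POLA2 below it, while most other rows stay pale.

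Counted by library rather than by test, the groups did not overlap for 20 members with shMUC1 above control and for 12 with shMUC1 below. Over all tested genes the corresponding shares were 28.1% and 26.8%, and over the equally well-counted genes 34.5% and 28.9%. The spread between replicates was small, with a median SD on the log2 scale of 0.0782 in control and 0.0544 in shMUC1 libraries. The widest were GINS2 in control (0.216) and GINS4 in shMUC1 libraries (0.213).

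Levels can be compared between genes only per length. In CPM per kilobase of annotated exon, RRM2 led in control with 229, followed by MCM4 (98.2), PCNA (89.6), RPA2 (45.4) and RRM1 (43.1). The lowest were POLA2 (0.912), LIG1 (2.81), E2F2 (3.42), GINS4 (3.51) and GINS3 (3.59). POLA1, the catalytic partner of POLA2, stood at 12.9, as far as annotated exon length stands for the transcript that was counted.

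Ratios of partner genes within a library do not depend on how libraries are scaled. The count ratio of RRM2 to RRM1 was 6.75, 6.57 and 6.99 in control and 5.68, 5.56 and 5.68 in shMUC1 libraries, without overlap. The mean log2 ratio fell by 0.26 (exact two-sided permutation test, p = 0.1, adjusted over 3 ratios 0.15). DBF4 to CDC7 was 2.64, 2.41 and 2.05 in control and 1.90, 1.94 and 1.88 in shMUC1 libraries, again without overlap, and its log2 ratio fell by 0.30 (exact permutation p = 0.1, adjusted 0.15). CDT1 to GMNN was 1.43, 1.53 and 1.67 against 1.95, 1.79 and 1.602, and the groups overlapped (log2 difference 0.20, exact permutation p = 0.2, adjusted 0.2). With 3 libraries against 3 the smallest p this test can give is 0.1, so none could pass the threshold.

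**Figure D4:**
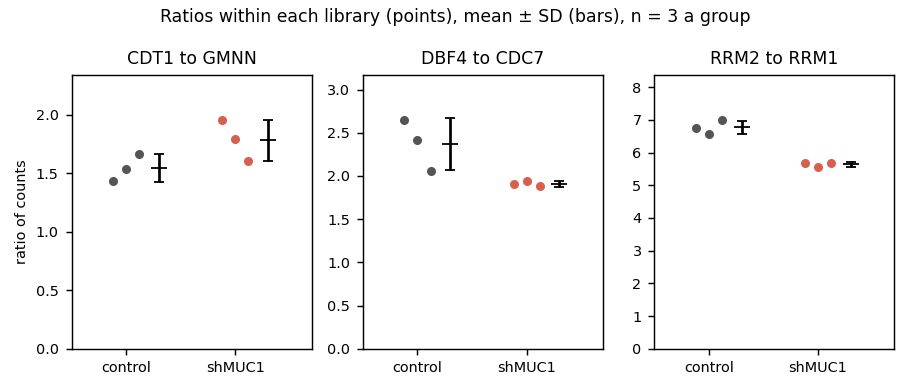
Ratio of counts (y axis, linear from 0) of CDT1 to GMNN, DBF4 to CDC7 and RRM2 to RRM1 in each library (points), with mean ± SD of 3 libraries (bars). The groups overlap for CDT1 to GMNN and do not for the other ratios.

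Some members differ in transcript length, and this moved with the result. The 22 members with the longer annotated exons (4309 to 16609 bases) had a median log2 fold change of -0.04, with 4 called higher and 8 lower. The 23 with shorter exons (1471 to 4177 bases) had a median of 0.14, with 13 called higher and 2 lower. Among the equally well-counted genes of any length 31.9% were called higher and 26.8% lower. Across the 45 members Spearman's rho between exon length and log2 fold change was -0.38, against -0.06 over 15166 tested genes, and -0.26 against -0.00033 after a trend on length and GC content was removed from each library. Genes are not independent replicates and all share the same 6 libraries, so these are descriptions, and the part of length in the fall of POLA1, POLA2 and POLE2 was not tested further than that removal, under which those 3 calls held.

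The 7-base word ATCAGTA was searched in 3′ untranslated regions because earlier results of these data had singled it out, so the values by its presence are descriptions. The 1604 tested genes with the word had a median log2 fold change of -0.12, with 20.6% called higher and 43.5% lower. The 11415 without it had a median of 0.03, with 28.96% called higher and 22.4% lower. The word stood in the 3′ untranslated region of 5 of 45 members, or 11.1%, against 12.3% of 13019 tested genes. The 5 were MCM4, MCM5, MCM6, GINS4 and RFC3, and none of the 7 polymerase and primase genes held it. MUC1, the target of the shRNA, also holds the word, and what the word stands for was not tested. Among 114 other genes of the pathway, 10 held it, of which 3 were called higher (RBL2, RRM2B and RAD1), 5 lower (RBL1, CTPS1, LIN54, ETAA1 and TPX2) and 2 neither (SAMHD1 and CHEK1). The site is shown for members called in opposite directions, MCM6 higher and RFC3 lower, and likewise for the pocket proteins RBL1 (lower) and RBL2 (higher), in transcript orientation from GENCODE 29 with the word in capitals.
MCM6: acttagctatgATCAGTAtgttcatgagg
RFC3: gatttctcagtATCAGTAtttacatacag
RBL1: atatttaatacATCAGTAaaatagctgct
RBL2: ttgtaaattgaATCAGTAtaaacaaagtt

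The word begins at base 827 of the 3′ untranslated region of MCM6 (chromosome 2), base 35 of that of RFC3 (chromosome 13), base 1269 of that of RBL1 (chromosome 20) and base 1177 of that of RBL2 (chromosome 16), each in the longest annotated 3′ untranslated region that holds it. Of the 5 members with the word, MCM6 was called higher, GINS4 and RFC3 lower, and MCM4 and MCM5 in neither direction.

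Of the other genes of the pathway, only RBL1 among those tested in 7 lists passed a 2-fold change. The counts of calls that follow stand beside background shares of 31.9% higher and 26.8% lower among the well-counted genes. Of 17 tested E2F partners and pocket proteins, 6 were called higher and 5 lower, with a median of 0.10. RBL1, the pocket protein p107, stood at 50.04, 42.0 and 42.8 CPM in control and 18.3, 18.8 and 15.5 CPM in shMUC1 libraries. It fell by 1.35 (SE 0.0800, edgeR adjusted p = 9.25e-17), past 2-fold and with the groups far apart. RB1, the retinoblastoma protein, had a log2 fold change of -0.33 (edgeR adjusted p = 0.0018), while RBL2, the third pocket protein, rose by 0.30 (edgeR adjusted p = 1.34e-06). CDC25A, the phosphatase that activates CDK2, rose by 0.34 and CCNE1, cyclin E1, by 0.23.

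Of 30 other replisome genes, 12 were called higher and 8 lower, with a median of 0.11. DSCC1, part of an alternative clamp loader, went from 39.7 ± 2.21 to 59.4 ± 0.770 CPM (log2 fold change 0.58, edgeR adjusted p = 7.89e-11). RPA3, the small RPA subunit, rose by 0.48 and DONSON, which helps build the active helicase, by 0.42. RFC1, the large subunit of the clamp loader, fell from 88.5 ± 0.447 to 64.6 ± 0.873 CPM (log2 fold change -0.45, edgeR adjusted p = 1.49e-10). CHTF18, the partner of DSCC1, fell by 0.38 and CLSPN, the checkpoint mediator claspin, by 0.34.

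Of 16 other nucleotide supply genes, 7 were called higher and 2 lower, with a median of 0.16. PPAT and IMPDH2, enzymes of purine synthesis, rose by 0.36 and 0.34. CTPS1, which makes CTP, fell from 300.2 to 181 CPM (log2 fold change -0.73, edgeR adjusted p = 6.67e-20), and CAD, the first enzyme of pyrimidine synthesis, fell by 0.17. The CAD call was lost after removal of the length and GC trend (edgeR adjusted p = 0.0518). In chromatin assembly, 4 of 10 were called higher and 3 lower, led by ASF1B (0.61), a histone chaperone, and by TONSL (-0.51), which binds new histones. In the replication checkpoint, 3 of 14 were called higher and 6 lower, among them TIPIN (0.24) and RAD1 (0.17) higher and HUS1 (-0.32) and WEE1 (-0.32) lower. The TIPIN call was lost without control replicate 1 (edgeR adjusted p = 0.0665), control replicate 2 (0.0732) or shMUC1 replicate 2 (0.0911).

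Of 25 genes of G2 and mitosis, 2 were called higher and 12 lower, with a median log2 fold change of -0.16 beside 0.08 for the 45 members. CENPA and CENPF, centromere proteins, fell by 0.41 and 0.40, and PRC1, a spindle protein at a low level (4.18 to 2.47 CPM), by 0.74. PRC1 had between 37 and 111 counts in a library, and whether its exons overlap those of other genes was not looked up. BIRC5 (0.24) and KIF23 (0.11) were called higher. The KIF23 call was lost in 8 of 15 alternatives, among them DESeq2 (adjusted p = 0.0843), library totals only (0.107) and DESeq2 size factors (0.0510), and without control replicate 2 (0.0872), control replicate 3 (0.182), shMUC1 replicate 1 (0.0620) or shMUC1 replicate 2 (0.180). Of 7 CDK inhibitors, 5 were called higher and 1 lower, with a median of 0.21. CDKN2B rose from 12.4 to 21.7 CPM (log2 fold change 0.81, edgeR adjusted p = 3e-08) and CDKN1A, the inhibitor p21, from 25.8 to 42.7 CPM (0.72, edgeR adjusted p = 3.17e-11), while CDKN2D fell by 0.47. The CDKN2D call was lost with DESeq2 (adjusted p = 0.0726), without control replicate 3 (edgeR adjusted p = 0.0906) or without shMUC1 replicate 1 (0.149). The difference between the lists was not tested.

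**Figure D5:**
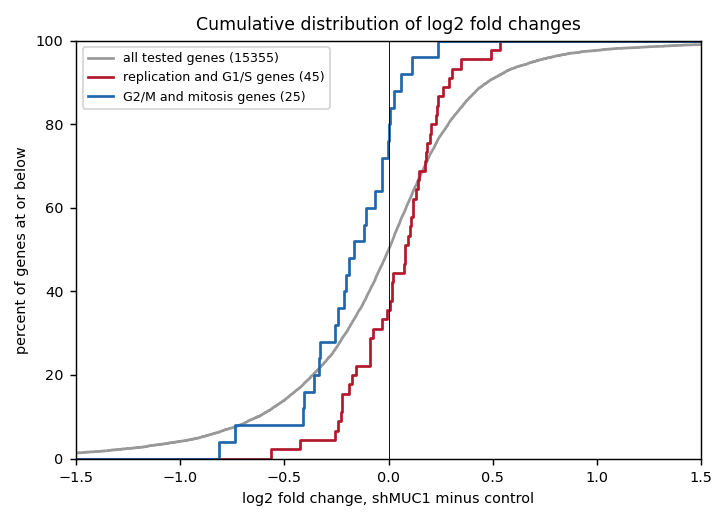
Percent of genes at or below each log2 fold change (x axis, shMUC1 minus control) for all 15355 tested genes, the 45 members and the 25 genes of G2 and mitosis. The members' curve is steeper than that of all genes and its median is 0.08, while that of the G2 and mitosis genes is -0.16.

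Reads of some members can be shared with other genes, since the strand setting of the counting is not given in the sources used here. Of the 45 members, 22 have neither an exon overlap in GENCODE 29 nor a named pseudogene. The overlap is on the same strand for 5 and on the opposite strand for 17, and 8 have named pseudogenes. Of the 22 members without either, 8 were called higher and 5 lower, beside 31.9% and 26.8% of the equally well-counted genes. The members called higher include GINS1, CDT1, CDC6, ORC1 and E2F2, and those called lower are POLA1, POLE, POLE2, PRIM2 and ORC6. DBF4 overlaps SLC25A40, RFC4 overlaps EIF4A2 and MCM7 overlaps AP4M1 on the opposite strand.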

How the data were processed

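Poly(A) RNA was sequenced from stranded libraries. The authors deposited unnormalized whole-number counts by gene symbol, a column for each library, and did not pool replicates. The submitters' processing notes name CASAVA 1.8.2, STAR 2.7.9a, featureCounts, DESeq2 1.24.0 and GRCh38.p7. The annotation release and the strand setting are not given in the sources used here. Small values were mostly even (69.6% ± 0.706 of values from 1 to 20 in control, 70.2% ± 0.319 in shMUC1 libraries, SD, n = 3), as if both mates of a read pair were counted, so halved counts were tried.

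Counts were tested with edgeR 4.0.16 (quasi-likelihood, TMM, filterByExpr, group as the only term, two-sided) in R 4.3.3. DESeq2 1.42.0 and limma-voom 3.58.1 were alternatives. SE was derived from the F statistic. On simulated counts for the 15355 genes, edgeR recovered 54% of genes changed by 0.3 on the log2 scale, 64% at 0.6, 74% at 1 and 98% at 2, with 11 false calls. A count of 3, the floor used for a gene at 0, equals 0.161 CPM in the shallowest library and covers counting error only.

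The members, lists and tests were chosen with earlier results of these data known, and removal of the GC content and length trend was added after seeing the data. Per-library values were given for the 20 called members with the largest log2 fold change in size and for ratio members. Those of MCM10, LIG1 and POLD1, which were not called, and of MUC1 and RBL1 were added. Of every other list up to 3 called genes a direction were named by size of change. Genes holding the word ATCAGTA and further polymerase and ORC subunits were named besides. Exon overlaps, exon lengths and 3′ untranslated regions came from GENCODE 29.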

Additional observations from a re-analysis of the deposited data

How the results depend on the processing

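No call on a member turned direction. Of 405 values (27 called members under 15 alternatives) 379 kept their side of the threshold and 26 lost the call, and 18 members kept theirs throughout. The calls lost were those of E2F1, MCM6, GINS4, PRIM2, PCNA, PRIM1, RFC3, POLE and RRM2. Members called higher ranged from 14 to 18 and those called lower from 7 to 12 over these alternatives. The calls over all genes fitted, whose number differed between alternatives, moved as well. They ranged from 3425 (DESeq2) to 4279 (length and GC trend removed) higher and from 3105 (DESeq2) to 3908 (library totals only) lower. The main fit called 3866 genes higher and 3617 lower, or 25.2% and 23.6% of all tested genes. A stricter threshold, an edgeR adjusted p under 0.01, was planned beside them. Under it the calls of MCM6, PCNA, PRIM1, E2F1, GINS4, RFC3 and PRIM2 were lost, and fewer members were called higher than in any alternative. The median of members, a log2 fold change, was 0.0571 with library totals only and 0.0563 where genes needed a mean of 50 counts. The median over all genes fitted was -0.0217 and -0.00323 in these fits, in that order, and 0.00058 in the main fit. The median of members ran from 0.0744 to 0.0973 with each library left out (highest without shMUC1 replicate 2). The cause was not tested. With the replicate block, 17 were higher and 10 lower, with the median of members at 0.0810 and MUC1 at -0.86. Same-numbered libraries did not deviate together (r of 0.0332, -0.0135 and -0.0301), so the values gave no ground to pair samples by number. Such correlations cannot exclude that same-numbered cultures were handled together. The 3 ratios kept their direction with halved counts, 2 counts added, the block and each library left out. Of 540 values for the 36 pathway genes picked by size of change, 502 kept their side and none turned. The 38 lost calls were those of KIF23, CDKN1C, ASF1A, DNMT1, CDKN2D, TIPIN and CAD. In simulated counts edgeR recovered 54% of genes changed by 0.3 on the log2 scale. That share is over all tested genes, and recovery among genes as well counted as the members was not tested. For members without a call, the SE of the log2 fold change ran from 0.0296 (MCM4) to 0.0951 (LIG1). Changes within such errors can be missed, so a member without a call is not shown to be the same in both groups.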
